A study of Mus musculus with 8 samples.

Results

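A set of 10 genes of TGF-β and BMP signalling was followed in cultured muscle stem cells (MuSCs) from aged mice. They are the ligand genes Tgfb1, Bmp4, Mstn and Inhba, the gene of the secreted antagonist Fst, the inhibitory SMAD genes Smad6 and Smad7, and the ID target genes Id1, Id2 and Id3. The 10 genes were taken by symbol from 55487 genes in the deposited count table, and each symbol matched 1 gene. Of the 10, Fst fell with NAM/PN, 8 others did not pass the test, and Mstn had too few reads to be tested.

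MuSCs were sorted from the hindlimb muscles of old mice, which the study's methods give as wild-type C57BL/6JRj males, as cells positive for CD34 and ITGA7 and negative for blood, endothelial and SCA1 markers. They were grown for 72 hours in growth medium with vehicle (1% DMSO) or with NAM/PN, the combination of nicotinamide and pyridoxine, for which the labels give a final concentration of 1 mM. No transgene, deletion or injury is described for either group, and whether the NAM/PN medium held DMSO is not given in the labels. The labels number 4 pools of 2 mice, and each pool number has 1 vehicle and 1 NAM/PN library, so the 4 libraries of a condition came from separate mice. Libraries with the same pool number were taken to come from the same mice, 8 in all, which the labels do not state outright.

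TGF-β, activin and myostatin signal through receptor kinases to SMAD2 and SMAD3, and BMPs through related receptors to SMAD1, SMAD5 and SMAD9, and both branches share SMAD4. ID proteins lack a DNA-binding domain. They are induced by BMP and hold E proteins away from MYOD and myogenin, by which they restrain myogenic differentiation. Follistatin binds activin and myostatin outside the cell and is known as a promoter of myoblast fusion and muscle growth, whereas SMAD6 and SMAD7 block the pathway inside the cell.

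Libraries held between 6472484 and 10163101 counts, and 3 counts, the floor used for detection, equalled 0.280 to 0.457 normalised CPM (counts scaled to a common, normalised library size). Of 12060 genes that passed the filter on low counts, 154 (1.28%) were called at an adjusted p-value under 0.05 by the quasi-likelihood test of edgeR after Benjamini-Hochberg adjustment, the test behind every adjusted p-value given here unless another tool is named. Of these, 34 were higher and 120 (0.995%) lower with NAM/PN. Reads on the ribosomal RNA gene with the most counts took 18.7% of the third vehicle library and between 5.22% and 11.6% of the other libraries. All 10 MuSC markers, among them Pax7, Myod1 and Itga7, were above the floor in all 8 libraries. Reads were counted at the 3′ end of transcripts, and levels are compared between libraries and not between genes. Floors and counting intervals cover counting error only.

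The plot of normalised CPM by library shows the 10 genes side by side.

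**Figure D1:**
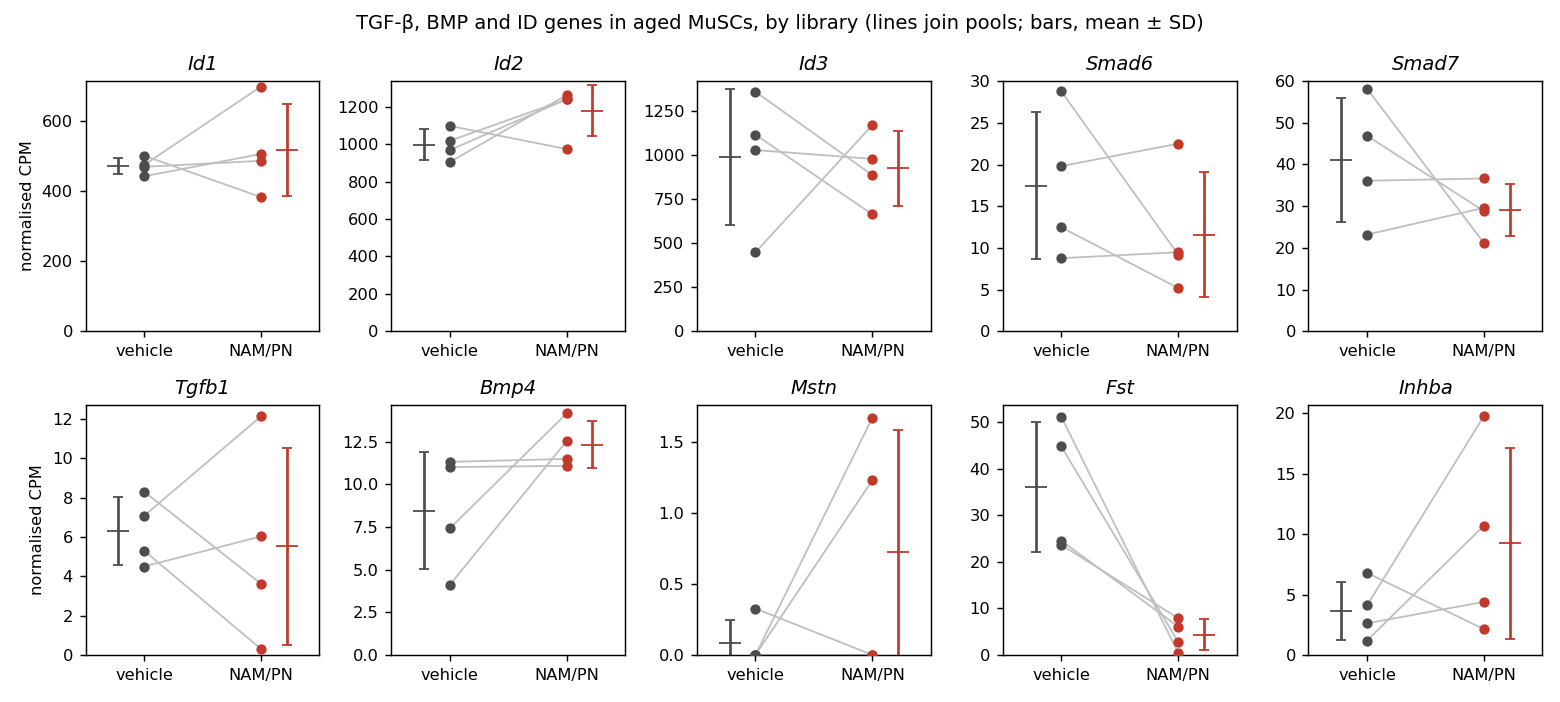
Normalised CPM (linear axis from 0, scaled per gene) of the 10 genes in the 4 vehicle and 4 NAM/PN libraries. Points are libraries, grey lines join libraries with the same pool number, and bars beside the points give mean ± SD. The vehicle and NAM/PN points are fully separated for Fst, from 23.7 to 51.2 CPM with vehicle and from 0.418 to 7.88 CPM with NAM/PN, and overlap for the other 9 genes.

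Among the ID genes, Id1 (chromosome 2 of GRCm38, 152736251 to 152737410, plus strand) measured 470.1, 443, 502 and 475 CPM in vehicle libraries 1 to 4 and 487, 507, 383 and 699.6 CPM in NAM/PN libraries 1 to 4. The vehicle libraries lay close together and inside the range of the NAM/PN libraries, of which the fourth was the highest and the third the lowest. Vehicle libraries averaged 472 ± 24.2 CPM and NAM/PN libraries 519 ± 132 CPM (SD, n = 4 each), with a log2 fold change of 0.14 (95% interval from -0.23 to 0.50, edgeR adjusted p = 0.929).

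Id2 (chromosome 12, 25093799 to 25097140, minus strand) measured 1018, 968, 904 and 1097 CPM with vehicle and, with NAM/PN, 1239.9, 1240.2, 1263 and 974 CPM. The NAM/PN libraries of pools 1, 2 and 3 were above all vehicle libraries, and that of pool 4 was below 2 of them. The log2 fold change was 0.24 (95% interval from -0.059 to 0.54, edgeR adjusted p = 0.704), so that the interval reached from a fold of 0.960 to a fold of 1.46. A two-sided exact permutation test on this gene alone gave p = 0.0857, where the smallest p that 4 against 4 libraries allow is 0.0286 when the pools are not kept together. With swaps within pools alone, a test added after the data were seen, the exact p was 0.25.

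Id3 (chromosome 4, 136143497 to 136145755, plus strand) measured 1360.3, 1029, 448 and 1117 CPM with vehicle and, with NAM/PN, 886, 979, 1172 and 663 CPM. It was lower with NAM/PN in 3 of 4 pools and 2.61-fold higher in pool 3. The vehicle library of pool 3 was the one with the high share of the most counted ribosomal RNA gene. The part of that share in the pool 3 value was not tested. The estimated log2 fold change was -0.10 (95% interval from -0.61 to 0.42, edgeR adjusted p = 0.976), and -0.099 with that ribosomal RNA gene left out. The estimates of the 3 ID genes thus had different signs, and none passed the edgeR test. Without NAM/PN library 4 the log2 fold changes of Id1 and Id3 turned to -0.042 and 0.034, and without vehicle library 1 that of Id3 to 0.093. That of Id3 was -0.34 without vehicle library 3 and -0.23 without NAM/PN library 3.

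The inhibitory SMADs are also direct targets of the pathway and feed back on it. Smad6 (chromosome 9, 63953076 to 64022059, minus strand), which acts mainly on the BMP branch, measured 8.76, 28.8, 12.5 and 19.8 CPM with vehicle and, with NAM/PN, 9.48, 9.20, 5.18 and 22.5 CPM. The 2 groups overlapped over most of their range, and 2 of 4 pools were lower with NAM/PN. The log2 fold change was -0.58 (95% interval from -1.70 to 0.53, edgeR adjusted p = 0.869).

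Smad7 (chromosome 18, 75367529 to 75395935, plus strand), which inhibits both branches, measured 46.9, 36.1, 58.2 and 23.2 CPM with vehicle and, with NAM/PN, 28.8, 36.6, 21.2 and 29.6 CPM. The highest values were those of vehicle libraries 1 and 3, but the fourth vehicle library was lower than all but 1 NAM/PN library. Its log2 fold change was -0.50 (95% interval from -1.17 to 0.17, edgeR adjusted p = 0.747).

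The ligand genes had few reads in these cultures. Tgfb1 (chromosome 7, 25687002 to 25705077, plus strand), the gene of the founding ligand of the family, had 38, 67, 43 and 65 counts with vehicle and 49, 26, 2 and 130 counts with NAM/PN, which is 4.50, 8.31, 5.31 and 7.07 CPM against 6.03, 3.62, 0.305 and 12.1 CPM. The NAM/PN libraries held both the lowest and the highest value. In pool 3 the vehicle level was 17.4 times the NAM/PN level (95% counting interval from 4.54 to 149), whereas in pool 4 it was 0.583 times that level (95% counting interval from 0.426 to 0.790). With 1 library per condition in each pool, spread between libraries is not in these intervals. The fitted log2 fold change was -0.18 (95% interval from -2.20 to 1.83, edgeR adjusted p = 0.990). It turned to 0.21 without NAM/PN library 3, and was -0.79 with the pool as a replicate block and -1.26 with limma voom, past the threshold in neither.

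Bmp4 (chromosome 14, 46383520 to 46390669, minus strand), a BMP ligand known to keep myoblasts proliferating, measured 11.01, 4.09, 7.41 and 11.3 CPM with vehicle and, with NAM/PN, 11.1, 12.5, 14.2 and 11.5 CPM. It was higher with NAM/PN in 4 of 4 pools, by small amounts in pools 1 and 4, and the lowest NAM/PN library lay between 2 vehicle libraries. The log2 fold change was 0.54 (95% interval from -0.64 to 1.72, edgeR adjusted p = 0.896), and the two-sided exact permutation test gave p = 0.0571. With swaps within pools alone, a test added after the data were seen, the exact p was 0.125, the smallest that 4 pools allow.

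Inhba (chromosome 13, 16011851 to 16031621, plus strand) encodes the subunit of activin A. It measured 1.18, 4.09, 6.79 and 2.61 CPM with vehicle and, with NAM/PN, 10.7, 19.8, 2.13 and 4.39 CPM. The first and second NAM/PN libraries stood above all others, and the third was below 3 of the 4 vehicle libraries. The estimated log2 fold change was 1.33 (95% interval from -0.59 to 3.25, edgeR adjusted p = 0.780).

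Mstn (chromosome 1, 53061640 to 53068079, plus strand), the gene of myostatin, a negative regulator of muscle mass made mainly by muscle fibres, had 0, 0, 0 and 3 counts with vehicle and 10, 12, 0 and 0 counts with NAM/PN. All vehicle libraries were at or below the floor of 3 counts, and 2 of 4 NAM/PN libraries were above it. Mstn did not pass the filter on low counts, and a two-sided exact permutation test gave p = 0.429, so that no difference was detected.

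Fst (ENSMUSG00000021765, chromosome 13, 114452290 to 114458951, minus strand) encodes follistatin. It measured 23.7, 51.2, 24.6 and 44.8 CPM with vehicle and, with NAM/PN, 7.88, 0.418, 6.09 and 2.80 CPM. Every NAM/PN library was below every vehicle library, and the second NAM/PN library held only 3 counts, which is the floor. Mean expression fell from 36.1 ± 14.1 CPM to 4.30 ± 3.33 CPM (SD, n = 4 libraries per condition), an 8.39-fold lower level (95% interval from 3.55 to 19.8) and a log2 fold change of -3.07 (standard error 0.59, edgeR adjusted p = 0.00894). The two-sided exact permutation test over all assignments of the 8 libraries gave p = 0.0286, the smallest it can give. With swaps within the 4 pools alone, a test added after the data were seen, the exact p was 0.125, which is the smallest that 4 pools allow and cannot pass the threshold.

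The ratio of Fst levels ranged widely over the 4 pools. Within pools, the vehicle level was 3.01 times the NAM/PN level in pool 1 (95% counting interval from 2.26 to 4.05), 123 times in pool 2 (41.7 to 597), 4.04 times in pool 3 (2.86 to 5.82) and 16.0 times in pool 4 (11.04 to 24.0). Each ratio compares 1 library with 1 other, so these intervals leave out the spread between libraries and do not test a difference between pools, and the value of pool 2 rested on 3 NAM/PN counts. Both levels entered into the larger ratios of pools 2 and 4, which had the higher vehicle levels and the lower NAM/PN levels.

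Over 21 alternative fits the log2 fold change of Fst stayed between -3.82 and -2.48, and 17 of them called it. The call was lost without vehicle library 2 (log2 fold change -2.85, edgeR adjusted p = 0.0729), without vehicle library 4 (-2.95, adjusted p = 0.0599), without pool 2 (-2.48, adjusted p = 0.0847) and without pool 4 (-2.78, adjusted p = 0.125). It held without the second NAM/PN library, the one with 3 counts (-2.69, edgeR adjusted p = 0.00969).

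**Figure D2:**
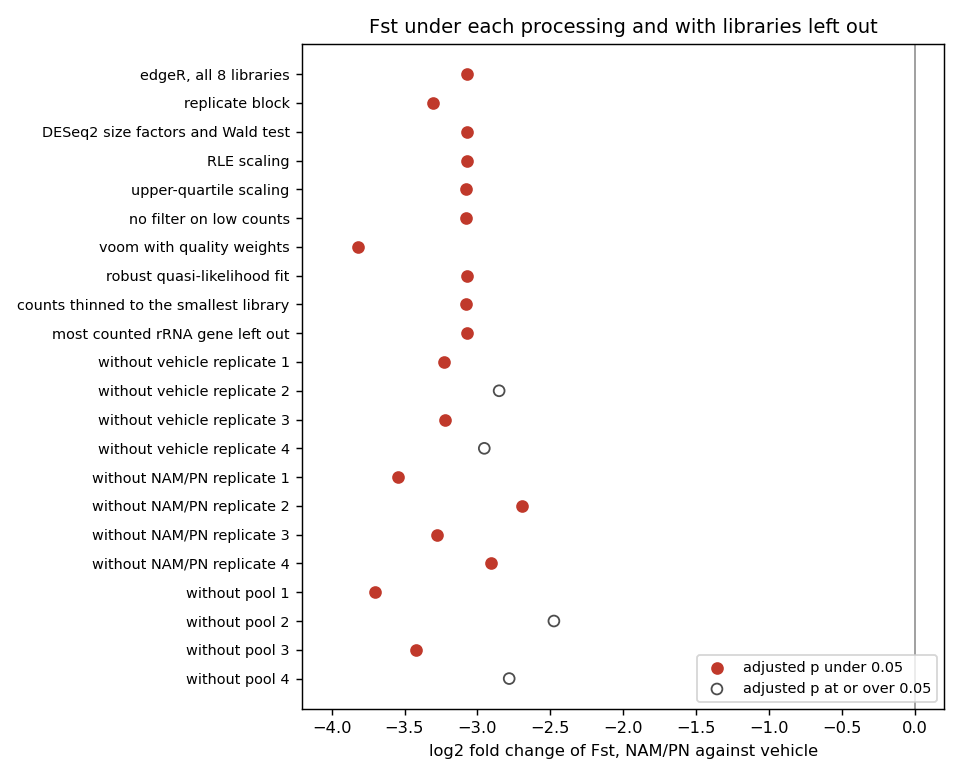
Log2 fold change of Fst, NAM/PN against vehicle, on the horizontal axis, in the fit reported here (top line) and in 21 alternatives (lines below). Filled points have an adjusted p-value under 0.05 and open points do not. All values lie between -3.82 and -2.48, and the 4 open points are the fits without vehicle library 2, vehicle library 4, pool 2 or pool 4.

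Transcripts typical of differentiating myocytes were, like Fst, lower with NAM/PN. The 10 myocyte markers examined summed to 1637, 2532, 1734 and 3162 CPM in vehicle libraries 1 to 4 and to 261, 742, 372 and 665 CPM in NAM/PN libraries 1 to 4. Of these markers 8 of 10 were called lower and 0 higher by edgeR (median log2 fold change -2.37), and 9 with the pool as a block, which added Actc1, the cardiac α-actin gene of immature myocytes (edgeR adjusted p = 0.281 without and 0.00931 with the block). With vehicle, Fst and the marker sum were both highest in libraries 2 and 4. With NAM/PN, Fst was highest in libraries 1 and 3, in which the marker sum was lowest. The part of the myocyte transcripts in the Fst result was not tested. In bulk RNA, fewer cells of a type and less RNA per cell cannot be told apart.

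MuSC markers summed to between 4323 and 5075 CPM with vehicle and between 3863 and 4439 CPM with NAM/PN, and 0 of 10 were called by edgeR with or without the pool as a block (1 with an unadjusted p under 0.05, 0 by DESeq2 and 1 by limma voom). Of the markers of other cell types, some had 0 counts and some had counts in all 8 libraries. Pdgfra, Lum and Dpt of fibro-adipogenic cells, Emcn, Flt1 and Cldn5 of endothelial cells, Myh11 of smooth muscle, and 7 of 8 leukocyte markers, Ptprc among them, had 0 counts in all 8 libraries, and the endothelial markers summed to at most 7.07 CPM with vehicle and to at most 7.25 CPM with NAM/PN. Fibro-adipogenic markers summed to 155 to 228 CPM with vehicle and 57.0 to 1125 CPM with NAM/PN, where Col1a1 gave the high values, and 1 of 3 tested was called lower, Col3a1. Mural markers summed to 285 to 611 CPM and 95.9 to 156 CPM, and 1 of 3 tested was called lower, Acta2, while Notch3 and Cspg4 had 153 to 442 and 90 to 369 counts per library. Glial markers summed to 5.93 to 44.5 CPM and 21.9 to 43.3 CPM, with 35 to 302 counts of Ngfr per library, and the leukocyte marker with counts, Cd68, to 0.979 to 7.58 CPM and 3.50 to 7.14 CPM.

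The 3 tested genes whose profile over the 8 libraries was nearest to that of Fst were Syne1, Rhoh and Arpp21, with root mean square differences of centred log2 CPM of 0.733, 0.741 and 0.745. Arpp21, which encodes a cAMP-regulated RNA-binding phosphoprotein, fell by 2.83 on the log2 scale (edgeR adjusted p = 0.00193). Syne1, which encodes a large protein of the nuclear envelope, and Rhoh both had a log2 fold change of -2.21, with edgeR adjusted p-values of 0.226 and 0.596. The 8 libraries shared the split by treatment, which any gene that differs strongly between the conditions also has.

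Of the 9 genes tested, 1 was called lower and 0 higher, against 1.28% of all tested genes in either direction and 0.995% lower. Fst was also the 1 gene of the 9 with an unadjusted edgeR p under 0.05, where 5.32% of all tested genes were lower and 3.96% higher at that level. DESeq2 and limma voom each called 1 of the 9, beside 2.4% and 1.92% of all tested genes. Their median log2 fold change was -0.10, beside -0.0022 for all tested genes. The groups did not overlap for 1 of the 9 genes, Fst, beside 7.21% of all tested genes. Once the pool was added as a replicate block, edgeR called 1.29% of all genes, and among the 9 it again called Fst (log2 fold change -3.31, edgeR adjusted p = 0.0203) and no other. The plot of fold changes sets both fits side by side.

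**Figure D3:**
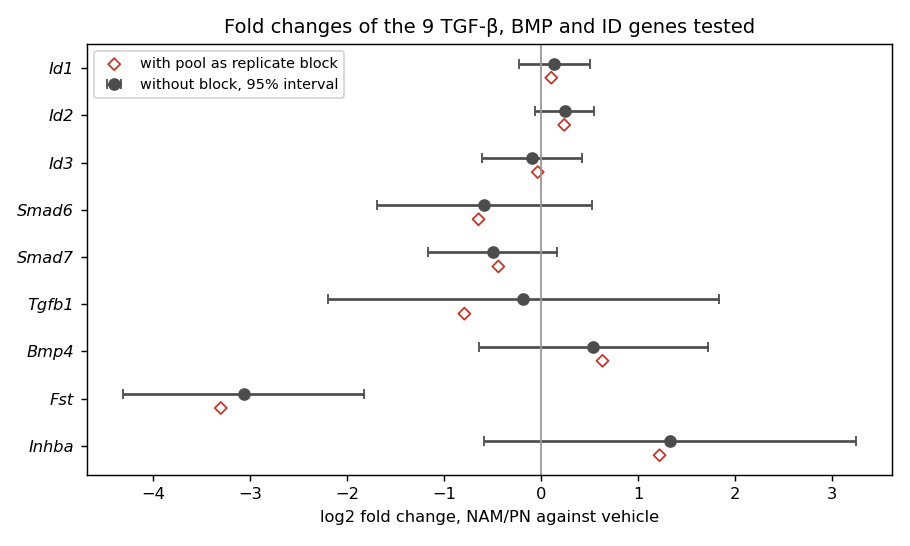
Log2 fold changes of the 9 tested genes, NAM/PN against vehicle, on the horizontal axis. Filled circles with bars give the edgeR fit without a block and its 95% interval (n = 4 libraries per condition), and open diamonds the fit with the pool as a block. The interval of Fst, from -4.31 to -1.83, lies below 0, and the intervals of the other 8 genes include 0.

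The 10 genes were then set beside 101 other genes of the pathway, in 9 lists by role that together held 111 genes, of which 80 were tested. The lists were chosen with earlier results of these data known. In these lists 6 genes were called lower and 0 higher, which is 7.50% of those tested against 1.28% of all tested genes. At an unadjusted edgeR p under 0.05 there were 13 lower and 5 higher genes among the 80, beside 5.32% lower and 3.96% higher over all tested genes. DESeq2 and limma voom each called 8, beside 2.4% and 1.92% of all tested genes, with Timp1, a metalloproteinase inhibitor gene named here after its values were seen, called higher (log2 fold change 0.60 in edgeR, adjusted p = 0.103). The median log2 fold change of the 80 was -0.22. Without the 10 genes, 5 of 71 were called (7.04%), with a median of -0.25. The groups did not overlap for 11 of the 80 genes (13.8%) against 7.21% of all tested genes, and 19 genes were lower and 5 higher with NAM/PN in all 4 pools, beside 10.6% lower and 8.49% higher over all tested genes.

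Among ligands, 0 of 8 tested genes were called by edgeR with or without the block, by DESeq2 or by limma voom, and the median log2 fold change was -0.46. An unadjusted edgeR p under 0.05 was found for 3 lower and 1 higher. The ligands with the most counts were Gdf11, a close relative of myostatin, at 36.1 ± 10.8 CPM in vehicle and 59.5 ± 16.2 CPM in NAM/PN libraries (SD, n = 4), and Gdf15, a stress-induced ligand, at 58.9 ± 22.2 CPM and 35.5 ± 3.04 CPM (SD, n = 4). Their edgeR adjusted p-values were 0.380 and 0.337. Gdf11 was higher with NAM/PN in all 4 pools, although the groups overlapped. Tgfb2, a further TGF-β isoform, had a log2 fold change of -1.23 (edgeR adjusted p = 0.492).

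Inhbb, the gene of the activin B subunit, was chosen after its values were seen. It had 17, 189, 161 and 147 counts with vehicle and 0, 44, 18 and 9 counts with NAM/PN. It was lower in 4 of 4 pools, and the first vehicle library lay among the NAM/PN libraries. The log2 fold change was -2.66 (95% interval from -4.75 to -0.58, edgeR adjusted p = 0.322), so the 2 activin subunit genes had estimates of opposite sign and neither passed the test.

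The receptors had a median log2 fold change of 0.056. Of 12 tested, 0 were called by edgeR with or without the block, by DESeq2 or by limma voom, and 0 had an unadjusted p under 0.05. Bmpr2, the type II BMP receptor, had a log2 fold change of -0.21, and the type I receptors Acvr1 and Bmpr1a had 0.063 and 0.049, with edgeR adjusted p-values of 0.893, 0.986 and 0.990. With the pool as a block the estimate for Bmpr1a was -0.025.

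Of the signalling SMADs, 0 of 6 were called by edgeR with or without the block, by DESeq2 or by limma voom, and 1 had an unadjusted p under 0.05, although all 6 had a log2 fold change below 0 (median -0.28). The BMP-branch genes Smad5 and Smad1 had log2 fold changes of -0.27 and -0.29, and the shared Smad4 one of -0.061, with edgeR adjusted p-values of 0.813, 0.891 and 0.986. Smad3, which carries TGF-β and activin signals and was chosen after its values were seen, measured 23.7, 28.4, 24.7 and 32.3 CPM with vehicle and, with NAM/PN, 3.57, 13.1, 14.9 and 22.5 CPM. The groups did not overlap, but the test did not call it (log2 fold change -1.01, edgeR adjusted p = 0.483).

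Of the intracellular inhibitors, 1 of 10 was called. Pmepa1, a TGF-β-induced gene whose product binds SMAD2 and SMAD3 and limits their activation, measured 752, 825, 1208 and 765 CPM with vehicle and, with NAM/PN, 582, 519, 545 and 496 CPM. Every NAM/PN library was below every vehicle library, and the third vehicle library stood above the rest. Its log2 fold change was -0.73 (95% interval from -1.08 to -0.38, edgeR adjusted p = 0.0332). The call was lost with the pool as a block (edgeR adjusted p = 0.0527), in the absence of any pool (adjusted p from 0.0844 to 0.276) and in the absence of vehicle library 2, 3 or 4 or NAM/PN library 1, 2 or 3 (adjusted p from 0.0510 to 0.116). The co-repressor genes Skil and Ski had log2 fold changes of -0.28 and 0.093, with edgeR adjusted p-values of 0.810 and 0.970.

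Fst was the 1 gene called among 9 tested secreted antagonists. The 3 antagonists with the most counts bind BMPs, and none was called by edgeR. Nbl1 and Grem1 had log2 fold changes of -0.30 and -0.53, and Twsg1 one of 0.17, with edgeR adjusted p-values of 0.749, 0.776 and 0.969. For Grem1 the groups did not overlap, at 26.1 ± 3.29 CPM in vehicle and 18.1 ± 5.09 CPM in NAM/PN libraries (SD, n = 4).

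Genes of ligand storage and activation had 0 calls among 9 tested by edgeR without the block (2 with an unadjusted p under 0.05) and 1 with it, and 0 by DESeq2 and limma voom. The latent TGF-β binding protein genes Ltbp1 and Ltbp3 had log2 fold changes of 0.047 and 0.23, and the proprotein convertase gene Furin one of -0.22, with edgeR adjusted p-values of 0.986, 0.878 and 0.912. The gene called with the block was Ltbp2, a matrix protein gene of the same family. Ltbp2 measured 28.9, 19.5, 41.3 and 20.9 CPM with vehicle and, with NAM/PN, 0.615, 0, 1.22 and 21.4 CPM. It was near 0 in 3 NAM/PN libraries and at the vehicle level in the fourth. Its edgeR log2 fold change was -2.22 without the block (adjusted p = 0.419) and -4.47 with it (adjusted p = 0.0413), and it was called without NAM/PN library 4 (-5.48, edgeR adjusted p = 0.000585) and without pool 4 (-5.59, edgeR adjusted p = 0.00456).

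The list of ID genes and BMP targets, which includes Id1, Id2 and Id3, held 0 calls of 11 tested by edgeR with or without the block, by DESeq2 and by limma voom, with 0 at an unadjusted p under 0.05 and a median log2 fold change of -0.46. The plot of the pathway by role shows the lists together.

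**Figure D4:**
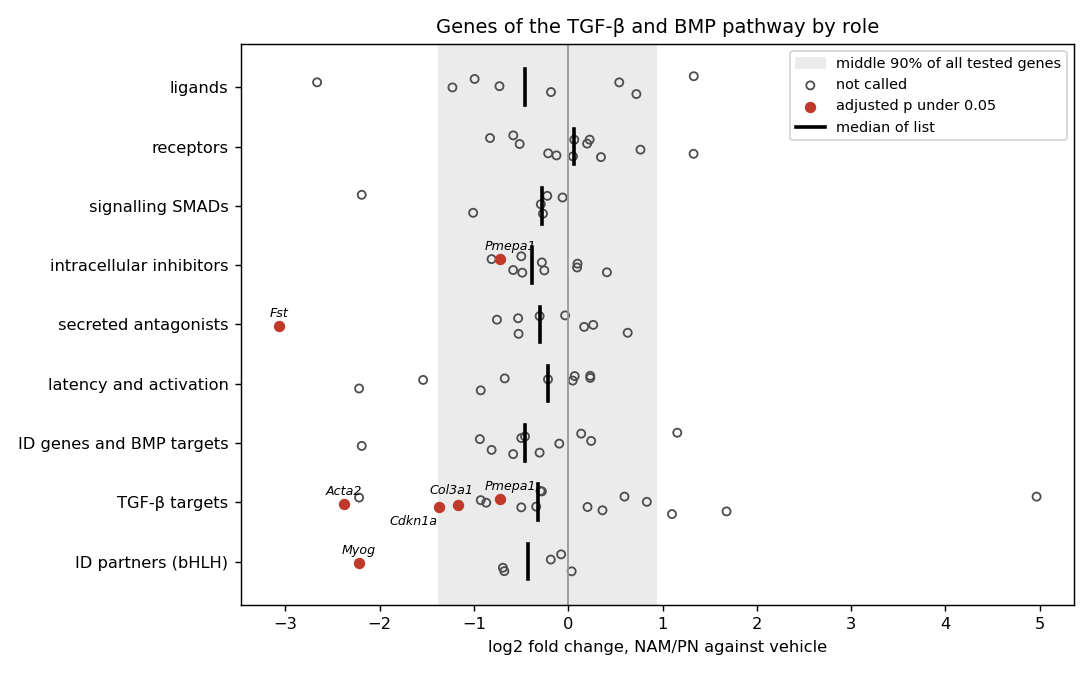
Log2 fold changes, NAM/PN against vehicle, on the horizontal axis, of the tested genes of 9 lists (1 line per list). Open circles are genes not called, filled circles genes with an edgeR adjusted p-value under 0.05, black bars list medians, and the grey band the middle 90% of all tested genes. The filled circles all lie left of 0, with Fst at -3.07, Acta2 at -2.38 and Myog at -2.22 outside the grey band on that side, and Pmepa1 appears in 2 lists.

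The most calls were in the list of TGF-β targets, of which edgeR called 4 of 18 tested genes lower and 0 higher (22.2%, beside 1.28% of all tested genes). The median log2 fold change was -0.32. At an unadjusted edgeR p under 0.05, 6 of the 18 were lower and 4 higher, beside 5.32% lower and 3.96% higher over all tested genes. The 4 higher were Col1a1, Col1a2, Timp1 and Cdkn2b, named after their values were seen. Besides Pmepa1 the called genes were Col3a1, Cdkn1a and Acta2. Col3a1, a fibrillar collagen gene, measured 149, 156, 166 and 149 CPM with vehicle and, with NAM/PN, 66.6, 84.4, 72.0 and 53.7 CPM, a 2.24-fold lower level (95% interval from 1.70 to 2.97, edgeR adjusted p = 0.00255). The lowest vehicle library lay above the highest NAM/PN library by more than the range within either group. Cdkn1a, the gene of the cell cycle inhibitor p21, which TGF-β, p53 and myogenic differentiation each induce, fell from 1302 ± 154 CPM to 504 ± 76.7 CPM (SD, n = 4; log2 fold change -1.37, edgeR adjusted p = 9.38e-05).

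Acta2, the gene of smooth muscle α-actin, which myoblasts also make as they differentiate, measured 244, 386, 307 and 534 CPM with vehicle and, with NAM/PN, 50.6, 62.1, 46.9 and 122 CPM. The highest level in each condition was in pool 4, and the log2 fold change was -2.38 (edgeR adjusted p = 0.000147). Of the 18 genes, 7 had a log2 fold change above 0. Col1a1, a fibrillar collagen gene chosen after its values were seen, measured 4.26, 1.74, 41.3 and 1.74 CPM with vehicle and, with NAM/PN, 486, 1032, 3.96 and 3.27 CPM. It was high in 2 NAM/PN libraries and at the vehicle level in the other 2 (log2 fold change 4.97, edgeR adjusted p = 0.0709). It was called by edgeR without vehicle library 3 (adjusted p = 0.0194), NAM/PN library 3 (0.0278), NAM/PN library 4 (0.0161) or pool 3 (0.00805), and with no filter on low counts. It was not called by edgeR with the block (adjusted p = 0.448) or in the robust fit (0.601), by DESeq2 (0.108) or by limma voom (0.613). Without pool 2 its log2 fold change was 3.39 (edgeR adjusted p = 0.608). NAM/PN libraries 1 and 2, which were high in Col1a1, were also those in which Inhba was highest and Mstn had counts. The part of these libraries in the values of Inhba and Mstn was not tested. Without NAM/PN library 1 and without NAM/PN library 2, the log2 fold change of Inhba was 1.25 and 0.65.

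The partners on which ID proteins act are the E proteins and the myogenic factors. Of 6 tested, 1 fell. Myog, the gene of myogenin, which drives terminal differentiation, measured 679.7, 1042, 566 and 1428 CPM with vehicle and, with NAM/PN, 108, 237, 173 and 277 CPM. All NAM/PN libraries lay below all vehicle libraries, with a log2 fold change of -2.22 (95% interval from -2.82 to -1.62, edgeR adjusted p = 0.000232). Myog is also 1 of the 10 myocyte markers. Myod1, the determination factor expressed in activated MuSCs, had a log2 fold change of -0.19 (95% interval from -0.49 to 0.12, edgeR adjusted p = 0.824). Tcf4, an E protein gene, was lower in 4 of 4 pools without overlap of the groups and was not called (473 ± 115 CPM in vehicle and 293 ± 33.9 CPM in NAM/PN libraries, SD, n = 4; log2 fold change -0.69, edgeR adjusted p = 0.0746). It was called by DESeq2 (adjusted p = 0.00923), by limma voom (0.0473) and by edgeR without a filter on low counts (0.00915), in the robust fit (0.0498) and without vehicle library 1 (0.0280).

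**Figure D5:**
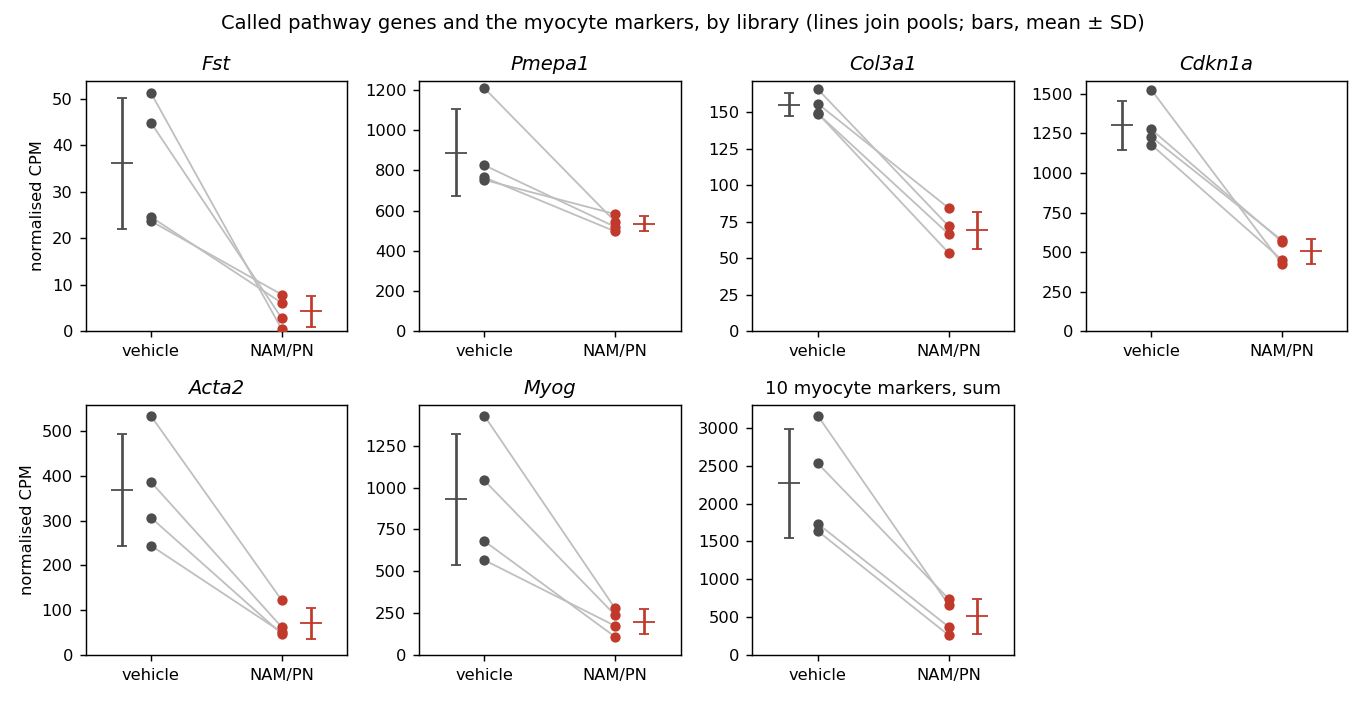
Normalised CPM (linear axis from 0, scaled per panel) of the 6 called pathway genes and of the sum of 10 myocyte markers in the 4 vehicle and 4 NAM/PN libraries. Points are libraries, grey lines join libraries with the same pool number, and bars give mean ± SD. In every panel the 4 NAM/PN points lie below the 4 vehicle points, and the marker sum lies between 1637 and 3162 CPM with vehicle and between 261 and 742 CPM with NAM/PN.

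Col3a1, Cdkn1a, Acta2 and Myog were called in all 21 alternative fits. Cdkn1a and Acta2, like Fst, are genes that differentiating myocytes express, and their falls went with the lower myocyte marker sums given above, whose part in them was not tested. The genes of the lists were chosen by textbook role, but with earlier results of these data known. Their counts are therefore not independent of the data, and are set beside those over all tested genes as a description only.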

How the data were processed

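Raw counts, the number of reads on each gene, were deposited by the authors for 8 libraries made with a QuantSeq 3′ kit. Their supplement names Bcl2FastQ, casava, RNASTAR and htseq-count on GRCm38, and the submitters' processing notes give HTSeq 2.16.2. The annotation release, strand setting and treatment of multiply mapped reads are not given in the sources used here. Groups and pools came from the labels. Same-numbered libraries were taken to come from the same mice by their pool number alone. Their deviations did not correlate (between -0.0332 and 0.0313 across genes), and blocked values are given where they change a call.

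Analyses used R 4.3.3, edgeR 4.0.16, limma 3.58.1, DESeq2 1.42.0 and data.table (version 1.17.8), with figures in Python 3.11.15 and matplotlib 3.10.9. Counts were filtered with filterByExpr (minimum count 10, minimum total 15), scaled by TMM (trimmed mean of M-values) and compared by edgeR's quasi-likelihood test, adjusted over 12060 genes at a threshold of 0.05. This test is the one the study describes for mouse muscles. Log2 CPM used a prior count of 2, and counting intervals are exact 95% intervals.

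The 10 genes and all lists were chosen with earlier results of these data known, and 1 list gene, left out of the lists for a reason unrelated to its values, is not reported here. Named are the 10 genes, every called list gene, the 3 genes with the most counts in each list, and the 3 genes nearest to each called gene of the 10, and others are said to be chosen after their values were seen. Positions and names are from GENCODE M21 (GRCm38), in which 55141 identifiers were found. Transcripts that overlap Bmp4, Fst and Inhba on the opposite strand had 0 counts. Alternatives were the block, DESeq2, other scalings, no filter, limma voom with quality weights, a robust fit, thinned counts, the ribosomal RNA gene with the most counts left out, a threshold of 0.10, and fits without each library or each pool.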

Additional observations from a re-analysis of the deposited data

Results flagged for a closer look

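Each group of 4 libraries was examined for 1 library far from the others, with a gap to its nearest neighbour above 0.829 of the whole range, in 34 groups. This flagged 3, where chance flags about 1.7 of 34 if values are normally distributed. That rate need not hold for groups mostly at or near 0, such as Mstn and the endothelial markers. In Id2, the fourth NAM/PN library measured 974 CPM against 1239.9 to 1263 CPM in the other 3 (gap 0.921 of the range). In Mstn, the fourth vehicle library measured 0.326 CPM, which is 3 counts, against 0 in the other 3 (gap of the whole range). The summed endothelial markers reached 7.25 CPM in the second NAM/PN library against 0 to 0.0934 CPM in the other NAM/PN libraries (gap 0.987 of the range).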

How the results depend on the processing

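Fst was the 1 gene of the 10 called in every fit that called any, and 1 was called in 18 of 22 alternatives, with a range of 0 to 1 over the fits that left out a library or a pool. With the pool as a replicate block edgeR called 1 of the 9 genes and 6 pathway genes, of which 5 were shared with the fit without it. It lost Pmepa1, gained Ltbp2, gained the myocyte marker Actc1 and changed no other call among the 9 genes, the pathway genes and the marker lists. The count of 6 pathway genes became 12 with no filter on low counts, which kept the 6 and added Col1a1, Col1a2, Ltbp2, Tcf4, Tgfbi and Thbs1, and the cause was not tested. It lay between 4 (without pool 2, vehicle library 2 or vehicle library 4) and 8 (without NAM/PN library 4) when a library or pool was left out, and DESeq2 and limma voom each called 8. Among the 9 genes, signs changed in fits that left out a library or pool and in no other of the 21 fits. Over the fits that left out a library or pool the log2 fold change of Id1 lay between -0.042 and 0.28, that of Id3 between -0.47 and 0.11, and that of Tgfb1 between -0.92 and 0.21. That of Fst lay between -3.70 and -2.48. Id2 (0.16 to 0.37), Smad6 (-1.13 to -0.14), Smad7 (-0.70 to -0.16), Bmp4 (0.30 to 0.74) and Inhba (0.65 to 2.13) kept their sign over the same fits and passed the threshold in none of the 21. Outside those fits, the replicate block moved Tgfb1 from -0.18 to -0.79 and Id3 from -0.096 to -0.035, limma voom moved Tgfb1 to -1.26, Smad6 from -0.58 to -0.91, Smad7 from -0.50 to -0.23 and Id1 from 0.14 to 0.038, and no other alternative moved one of the 9 by over 1.5 times. Of single libraries, leaving out vehicle 2 moved Smad6 to -0.24 and Bmp4 to 0.31, leaving out NAM/PN 3 or 4 moved Smad6 to -0.34 or -1.13, leaving out NAM/PN 2 moved Inhba to 0.65, and leaving out vehicle 3 moved Smad7 to -0.29. Mstn, Tgfb1, Bmp4 and Inhba had fewer than 150 counts in each library, so that counting error is part of their spread.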
